A study of Mus musculus with 8 samples.

Results

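The genes described here are 10 markers and effectors of the osteoclast, the multinucleated cell that resorbs bone: Tnfrsf11a, Nfatc1, Oscar, Ocstamp, Dcstamp, Mmp9, Acp5, Ctsk, Atp6v0d2 and Clcn7. They were taken by symbol from a table of 34432 genes in cultured mouse macrophages, and each symbol matched 1 row. All 10 had at least 1 read, and 8 passed the filter for testing, a value no lower than 10 in 4 or more libraries. The cells were macrophages grown from bone marrow and taken untreated on day 7. The 4 control libraries (VAV-cre) carry a Cre recombinase driven by Vav, a promoter of blood-forming cells. The 4 double knockout libraries (CDK8CDK19KO) carry the same kind of recombinase as Vav-iCre, with a Cdk8 flox/flox gene and a Cdk19null allele. The Mediator complex, which links transcription factors to RNA polymerase, carries 1 of these paralogous kinases at a time. Not given in the sources used here were the age and sex of the mice, the number of animals, the type of null allele and whether the culture medium held an osteoclast-inducing cytokine.

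Osteoclasts arise from the monocyte and macrophage lineage. Macrophage colony-stimulating factor keeps the precursors alive through its receptor Csf1r, and the cytokine RANKL, the product of Tnfsf11, acts on its receptor RANK, the product of Tnfrsf11a. RANK signals through NF-kB and AP-1 factors and, together with receptors that pair with ITAM adaptors such as Oscar, induces the transcription factor Nfatc1. Nfatc1 in turn is known to activate the fusion proteins Dcstamp, Ocstamp and Atp6v0d2 and the resorption genes Acp5 and Ctsk. The mature cell acidifies the bone surface with a proton pump (V-ATPase) and the chloride transporter encoded by Clcn7, and it digests the matrix with cathepsin K and matrix metalloproteinases such as Mmp9. Resting macrophages share part of this lysosomal machinery.

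Values are reads per gene divided by a size factor of the library, here called normalized reads, and are given as mean ± SD with n = 4 per genotype. Libraries held 17856715 to 21353207 reads. The labels do not say whether the 4 libraries of a genotype came from separate animals or cultures, so the tests measure the spread between these libraries, which may be technical. The double knockouts fell into pairs: the chi-square per gene was 7.93 between libraries 1 and 2 and 9.01 between 3 and 4, against 18.6 to 25.3 across the pairs. Controls were uneven too, from 9.08 between libraries 2 and 3 to 36.2 between 1 and 4. Cdk19 had a mean of 1452 ± 189 in controls and of 372.8 ± 25.8 in double knockouts. Cdk8 stood at 438.7 ± 24.5 and 347.3 ± 60.8, with overlapping libraries, and its total also counts exons outside the floxed part. Macrophage markers were abundant, with a sum over 8 genes of 278021 to 294641 in controls and 192563 to 211068 in double knockouts. The sum was carried mainly by Lyz2 (means of 160549 and 96662), and the 8 genes moved both ways: 5 fell and 3 rose, Mertk (log2 1.08), Mrc1 (0.59) and Cd68 (0.57), named after their values had been seen. Among all genes tested, 23.8% fell and 22.9% rose. Fewer cells of a type and less RNA per cell cannot be told apart in bulk RNA.

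The 10 genes moved in both directions. The receptor gene Tnfrsf11a and the fusion and protease genes Ocstamp and Mmp9 were lower in the double knockout, Acp5, Atp6v0d2 and Clcn7 were higher, and Nfatc1 and Ctsk did not pass the test (limma, Benjamini-Hochberg adjusted p under 0.05). Of the 8 tested, 3 rose and 3 fell, against 22.9% and 23.8% of the 11675 genes tested, and 46.6% in either direction. The 6 called are 75% of the 8. With so large a background and 8 genes, the count does not set these genes apart. Mmp9 and Ocstamp passed the filter mainly through the controls: 4 control libraries reached a value of 10 for each, and 1 and 3 double knockout libraries did. Ctsk passed through 4 double knockout and 2 control libraries. Their counts and p-values are therefore no support for a change, of these genes or of the group. The median log2 fold change of the 8 was 0.24, and that of all genes tested was 0.01.

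**Figure D1:**
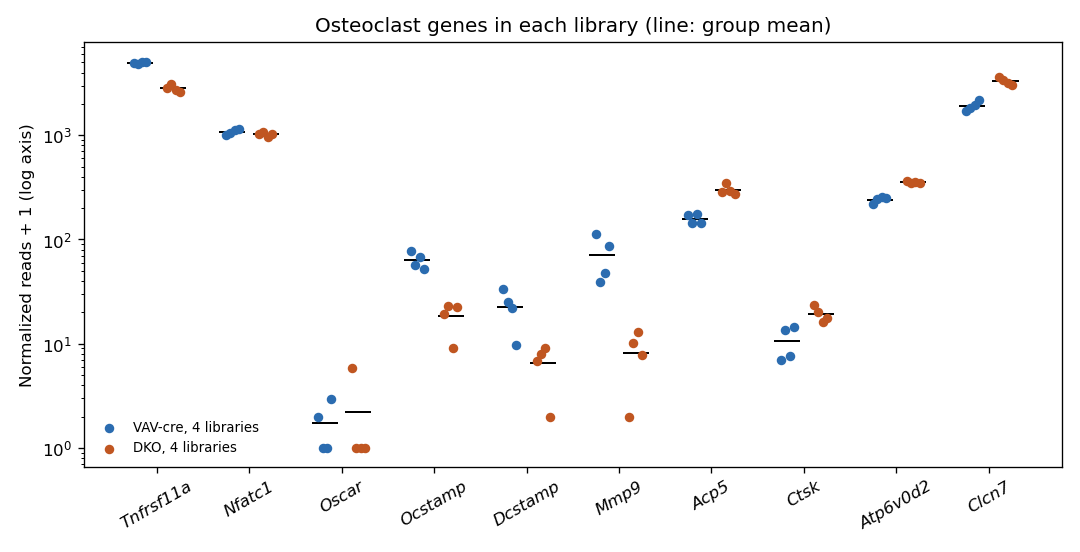
Normalized reads plus 1 on a log axis for the 10 genes, with 1 point per library (blue VAV-cre, orange DKO, the double knockout) and a line at the mean of each group. The groups do not overlap for 8 of the 10 genes, 7 of them tested, and Nfatc1 and Oscar are the exceptions. No overlap was found for 42.9% of all genes tested. Of the 7, Mmp9, Ocstamp and Ctsk passed the filter mainly through the group where they were higher, so the count is no result about the group. Outside the filter, where Dcstamp belongs, 3.57% of genes with reads had no overlap. These include genes with too few reads to separate the groups, so this share is no like background for Dcstamp.

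Per kilobase of annotated exon, which allows levels of different genes to be compared, Tnfrsf11a was the highest of the 10 in controls, at 831 normalized reads per kilobase, followed by Clcn7 at 363 and Nfatc1 at 145. Atp6v0d2 (88.5 per kilobase) and Acp5 (77.6) came next and had overlapping library ranges, 80.3 to 92.8 and 70.3 to 85.3. Mmp9 (19.8) and Ocstamp (17.1) also overlapped, as did Dcstamp (8.11) and Ctsk (6.39), and the lowest Mmp9 library (10.7) lay below the highest Dcstamp library (12.2), and Oscar was last at 0.394. In double knockouts Clcn7 stood first at 623 per kilobase and Tnfrsf11a second at 469.9, with no overlap in either genotype between these 2 genes. Acp5 (148), Nfatc1 (137) and Atp6v0d2 (130.1) then had adjoining ranges, of which the first 2 overlapped and the last 2 overlapped. Ctsk (12.1) stood above Ocstamp (4.79), Dcstamp (2.05) and Mmp9 (2.04) in all libraries. Tnfrsf11a and Clcn7 were the highest pair in both genotypes, and Oscar had the lowest mean in both. All Oscar libraries lay below those of the other genes in controls only. Its range in double knockouts overlapped those of Mmp9, Dcstamp and Ocstamp. Its 5 reads there all came from double knockout 1, where Oscar (2.628 per kilobase) stood above Mmp9 (0.2743).

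Tnfrsf11a (ENSMUSG00000026321, chromosome 1, 105780718 to 105847981, mm10, plus strand) encodes RANK, the receptor that starts osteoclast formation. The 4 controls held 4963, 4813.5, 5079.2 and 5043.5 normalized reads, and the 4 double knockouts held 2813.5, 3114.9, 2729.9 and 2591.2. All double knockouts lay below all controls, and the spread within each group was small beside the gap. The mean fell from 4975 ± 118 to 2812 ± 222, a log2 fold change of -0.83 (SE 0.06, 95% interval -0.97 to -0.68, limma adjusted p = 9.52e-07). Groups that do not overlap were found for 42.9% of all genes tested and for 7 of the 8 tested genes here. Of these 7, Mmp9, Ocstamp and Ctsk passed the filter mainly through the group where they were higher. The count is therefore no result about the 8 genes. The growth factor receptor gene Csf1r was lower too: controls held 39077 to 46903 and double knockouts 24168 to 27198 (log2 -0.80, adjusted p = 2.39e-06). The ligand gene Tnfsf11 had 1 read in 1 control library and none in the other 7, and Tnfrsf11b, its soluble decoy receptor, was listed at 2.89 to 12.2 in controls and 3.02 to 5.85 in double knockouts, below the filter.

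Nfatc1 (ENSMUSG00000033016), the transcription factor regarded as the master regulator of osteoclast formation, stood at nearly equal levels. Controls held 1006, 1051, 1124 and 1160.1 normalized reads and double knockouts 1034, 1079.5, 952 and 1033. Libraries of the 2 genotypes were interleaved. The means were 1085 ± 69.6 and 1025 ± 52.9, and the log2 fold change of -0.08 (SE 0.08, limma adjusted p = 0.396) had a 95% interval of -0.25 to 0.08.

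Oscar (ENSMUSG00000054594, chromosome 7, 3609813 to 3616157, mm10, minus strand), an osteoclast receptor that signals through an ITAM adaptor, was close to undetected. Reads were 1, 0, 0 and 2 in controls and 5, 0, 0 and 0 in double knockouts, so 3 and 5 in all. A count of 0 allows up to 3 reads, which is a value of 2.89 to 3.33 in these libraries. No difference was detectable at this depth (exact two-sided permutation p = 1.0), and no fold is given.

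The 2 fusion genes were both read at low levels and both were lower in the double knockout. Ocstamp and Dcstamp encode multi-pass membrane proteins needed for precursors to fuse into multinucleated cells. Ocstamp (ENSMUSG00000027670, chromosome 2, 165393760 to 165400405, mm10, minus strand) had 76.7, 56.1, 66.6 and 51.1 normalized reads in controls and 18.4, 22.1, 8.0 and 21.4 in double knockouts. The lowest control stood well above the highest double knockout. The mean fell from 62.6 ± 11.4 to 17.5 ± 6.53, a difference of -1.86 on the log2 scale (SE 0.34, adjusted p = 0.000902). Ocstamp reached a value of 10 in 4 control and 3 double knockout libraries. It thus passed the filter mainly through the controls, and its p-value is no support for a change. Dcstamp (ENSMUSG00000022303, chromosome 15, 39745930 to 39760938, mm10, plus strand) had 32.4, 24.2, 21.1 and 8.68 in controls and 5.83, 7.04, 8.0 and 0.97 in double knockouts. Control 4 was far below the other controls and close to double knockout 3. The groups did not overlap, and the means were 21.6 ± 9.85 and 5.46 ± 3.12, from 86 and 22 reads in all. Dcstamp did not pass the filter, since 3 libraries reached 10, and the exact two-sided permutation test gave p = 0.0286, the lowest p possible with groups of 4. Among the 5943 genes with reads that failed the filter, 3.57% had groups without overlap. These include genes with as few as 1 read, such as Tnfsf11, which cannot separate groups of 4. The share is therefore no like background for Dcstamp, which had reads in all libraries. With every gene that had a read entered, the log2 fold change of Dcstamp was -1.88 (SE 0.58, limma adjusted p = 0.0257).

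Mmp9 (ENSMUSG00000017737, chromosome 2, 164940780 to 164955850, mm10, plus strand), which encodes gelatinase B, showed the largest fold difference of the 8 tested. Controls held 111, 37.7, 46.6 and 84.9 normalized reads and double knockouts 0.971, 9.05, 12 and 6.82. Controls 1 and 4 were the highest, and double knockout 1 rested on 1 read. The mean fell from 70.1 ± 34.1 to 7.21 ± 4.67, a log2 fold change of -3.28 (SE 0.58, 95% interval -4.55 to -2.0, adjusted p = 0.000735). Without double knockout replicate 1 it was -2.69 (adjusted p = 0.000538). Mmp9 reached a value of 10 in 4 control and 1 double knockout libraries. It thus passed the filter through the controls, and its p-values are no support for a change. Mmp9 is also stored in neutrophil granules, and neutrophil markers moved in the same libraries. Of 12 neutrophil markers, 11 were tested. Of these, 8 fell, against 23.8% of all genes tested, and 3 did not pass the test, with a median log2 fold change of -1.72. All 12 neutrophil markers had reads. Their summed value was 4280, 2655, 2600 and 3196 in controls. In double knockouts it was 1302, 1571, 1384 and 1289. Controls 1 and 4, with the most Mmp9, also had the largest neutrophil sums. Csf3r and Lcn2, which did not pass the test, made up 18.6% to 24.6% of that sum in controls and 50.6% to 63.8% in double knockouts. S100a9, a subunit of calprotectin, had a log2 fold change of -2.41 and Ltf, the granule protein lactoferrin, of -2.63. Monocyte markers moved as well: 3 of 6 (Ccr2, F13a1 and Chil3) fell, against 23.8% of all genes tested, and 3 did not pass the test. The monocyte sums were 2272 to 2709 in controls and 383.5 to 489 in double knockouts. The part of neutrophils and monocytes in the values of Mmp9, Ocstamp and Dcstamp was not tested.

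**Figure D2:**
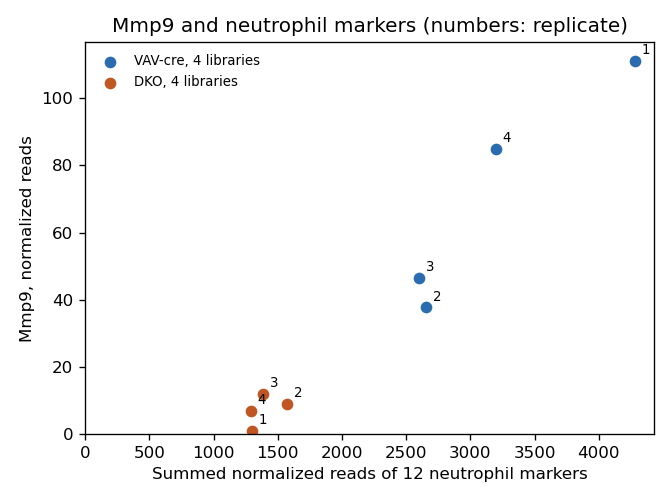
Mmp9 (normalized reads, vertical axis) against the summed normalized reads of 12 neutrophil markers (horizontal axis), with 1 numbered point per library, blue for VAV-cre and orange for DKO. Controls 1 and 4 hold the highest values on both axes, 111 and 84.9 of Mmp9 at sums of 4280 and 3196, and the 4 double knockouts lie below 1600 and 13.

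Acp5 (ENSMUSG00000001348, chromosome 9, 22126727 to 22135711, mm10, minus strand) encodes tartrate-resistant acid phosphatase, the classic histochemical marker of osteoclasts, which macrophages also make. Controls held 171, 143, 173 and 143 normalized reads and double knockouts 287, 349.8, 291 and 269.9. Double knockout 2 was the highest, and every double knockout lay above every control. The mean rose from 157.5 ± 16.9 to 299.5 ± 34.7, a difference of 0.92 on the log2 scale (SE 0.13, adjusted p = 0.000138). In the annotation 137 exon bases of Acp5 are shared with a transcript on the other strand, 6530413G14Rik, and no source used here says whether the counting used strand, so its reads are uncertain to that extent.

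Ctsk (ENSMUSG00000028111, chromosome 3, 95499256 to 95509362, mm10, plus strand) encodes cathepsin K, the main collagenase of osteoclasts. Its reads were few, 6, 13, 6 and 14 in controls and 23, 19, 15 and 17 in double knockouts. As normalized reads these were 5.90, 12.6, 6.66 and 13.5 against 22.3, 19.1, 15.0 and 16.6, and the groups did not overlap. The means were 9.66 ± 3.93 and 18.25 ± 3.20. The log2 fold change of 0.92 (SE 0.41, 95% interval 0.01 to 1.82) did not pass the test over all genes (limma adjusted p = 0.0888). It passed without the trend and robust options of limma (adjusted p = 0.0254).

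Atp6v0d2 (ENSMUSG00000028238, chromosome 4, 19876841 to 19922605, mm10, minus strand) encodes the d2 subunit of the proton pump, which is known both for pump assembly and for cell fusion in osteoclasts. Controls held 218, 243, 252 and 249 normalized reads and double knockouts 361, 349.8, 356 and 346. The double knockouts formed a tight group above all controls. The mean rose from 240.4 ± 15.3 to 353 ± 6.73, a difference of 0.56 on the log2 scale (SE 0.10, adjusted p = 0.000746). The widely expressed form of the same subunit, Atp6v0d1, stood at 1945 ± 47.4 and 2138 ± 198 and did not pass the test (log2 0.13, adjusted p = 0.164, and 0.0374 without double knockout replicate 1). Within each library the log2 ratio of Atp6v0d2 to Atp6v0d1 was -3.11, -3.02, -2.94 and -3.00 in controls and -2.37, -2.59, -2.70 and -2.71 in double knockouts. The ratio was 1.34-fold higher in the double knockout, with no overlap (exact two-sided permutation p = 0.0286, also 0.0286 when adjusted over the 2 ratios tested). Atp6v0d2, a gene of the fusion step as well as of the pump, thus moved opposite to Ocstamp and Dcstamp.

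Clcn7 (ENSMUSG00000036636, chromosome 17, 25133391 to 25162104, mm10, plus strand) encodes a chloride and proton exchanger of lysosomes and of the ruffled border, and its loss causes osteopetrosis. Controls held 1704, 1846, 1972 and 2156 normalized reads and double knockouts 3599, 3370.2, 3195 and 3010.2. All double knockouts lay above all controls. The mean rose from 1919.5 ± 192 to 3294 ± 251, a difference of 0.78 on the log2 scale (SE 0.08, adjusted p = 1.24e-05). Its obligate partner Ostm1 stood at 1665 ± 52.2 and 1868 ± 117, without overlap, and did not pass the test (log2 0.16, limma adjusted p = 0.0578). Ostm1 passed in 3 of 19 alternatives. These were without double knockout replicate 3 (limma adjusted p = 0.0401), under quantile normalization (0.0489) and with DESeq2 (adjusted p = 0.0393). The log2 ratio of Clcn7 to Ostm1 was -0.02, 0.14, 0.24 and 0.43 in controls and 0.83, 0.88, 0.88 and 0.68 in double knockouts, 1.53-fold higher without overlap (exact two-sided permutation p = 0.0286).

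**Figure D3:**
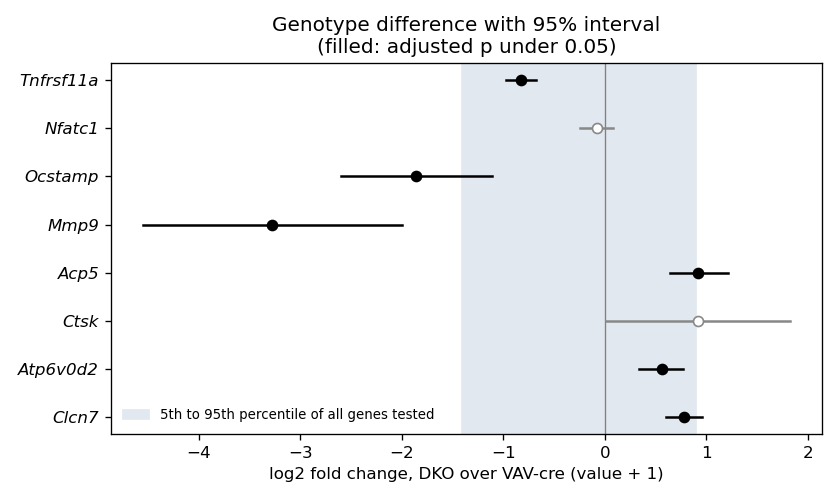
Log2 fold change of the double knockout over VAV-cre for the 8 genes tested, with 95% intervals as lines, filled points for adjusted p under 0.05 and open points otherwise. The grey band from -1.41 to 0.90 holds the 5th to 95th percentile of all genes tested. Mmp9 (-3.28) and Ocstamp (-1.86) lie outside it on the low side. Acp5 and Ctsk (0.92 each) lie just outside it on the high side.

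Start-site sequences were at hand for 5 of the 10 genes (Acp5, Clcn7, Ctsk, Oscar and Tnfrsf11a) as 8 entries of 300 bases, 250 before and 50 after a RefSeq start site, build GRCm38.p6, written 5′ to 3′ on the strand of the gene. The 3 entries below are from genes that were called, Clcn7 and Acp5 (higher) and Tnfrsf11a (lower). The Acp5 entry is the 1 of 3 whose end lies in an annotated transcript, and the Clcn7 entry is the upstream of 2. Capitals mark matches on either strand to an NFAT core (TGGAAA), the M-box (CATGTG), which is known to bind MITF and TFE factors, or the core of the CLEAR element (CACGTG), known from lysosomal genes. AP-1 (TGANTCA), PU.1 (GAGGAA) and NF-kB sequences were searched as well and had no match in these 3.
Clcn7, chr17:25133141-25133440, plus strand: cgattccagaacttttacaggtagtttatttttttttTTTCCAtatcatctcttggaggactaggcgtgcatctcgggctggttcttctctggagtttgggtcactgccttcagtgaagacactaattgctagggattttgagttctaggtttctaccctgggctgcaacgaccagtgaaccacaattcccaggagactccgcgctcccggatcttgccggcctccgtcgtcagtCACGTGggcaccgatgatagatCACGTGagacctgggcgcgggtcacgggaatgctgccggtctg
Acp5, chr9:22130549-22130848, minus strand: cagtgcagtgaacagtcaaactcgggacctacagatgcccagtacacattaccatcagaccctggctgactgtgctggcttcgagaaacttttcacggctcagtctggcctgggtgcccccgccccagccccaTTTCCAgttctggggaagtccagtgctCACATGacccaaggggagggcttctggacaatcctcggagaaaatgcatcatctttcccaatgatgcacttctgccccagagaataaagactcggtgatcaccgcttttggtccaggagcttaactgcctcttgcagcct
Tnfrsf11a, chr1:105780473-105780772, plus strand: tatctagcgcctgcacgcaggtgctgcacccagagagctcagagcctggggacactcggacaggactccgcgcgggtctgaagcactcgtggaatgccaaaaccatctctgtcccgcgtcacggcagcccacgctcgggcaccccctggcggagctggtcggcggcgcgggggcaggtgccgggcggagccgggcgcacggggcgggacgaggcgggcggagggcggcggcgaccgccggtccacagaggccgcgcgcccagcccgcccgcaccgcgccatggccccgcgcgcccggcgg
The Clcn7 entry held 2 CLEAR cores, starting at positions -15 and 8 from the start site, and an NFAT core at -213 on the opposite strand. The other Clcn7 entry held an M-box at -41. The Acp5 entry held an M-box at -90 and an NFAT core at -117, both read on the opposite strand, while the other 2 Acp5 entries held no match. The Tnfrsf11a entry, with 76.7% G and C, held none of the 6 motifs. A CLEAR core was present in 7.15% of all 32851 entries, an M-box in 14.2% and an NFAT core in 21.4%. Entries of genes that were not called also held matches: Oscar held 2 NFAT cores, 2 PU.1 cores and an M-box, and Ctsk held an NFAT core and 2 PU.1 cores. Among called genes with an entry, Clcn7 and Acp5 (higher) held matches and Tnfrsf11a (lower) held none. Mmp9, Ocstamp and Atp6v0d2, also called, had no entry, so whether matches go with direction cannot be judged. The matches describe letters in the window and not binding. The MITF and TFE genes themselves, chosen for mention after their values had been seen, did not pass the test: Mitf, Tfe3 and Tfeb had log2 fold changes of -0.09, -0.01 and -0.07.

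The other genes of acid secretion and lysosome traffic were mostly higher, as Atp6v0d2 and Clcn7 were. Of 22 tested, 13 rose, 4 fell and 5 did not pass the test, where 22.9% of all genes tested were higher and 23.8% lower. The median log2 fold change of the list was 0.30. Of the 12 V-ATPase genes in the list, 10 rose, by 0.16 to 0.53 on the log2 scale, and 2 did not pass the test. Lamp1, a lysosomal membrane protein, had a log2 fold change of 0.68 (adjusted p = 7.48e-07), Plekhm1, an adaptor of lysosome fusion that is mutated in osteopetrosis, 0.61, the late endosome GTPase Rab7 0.47 and the pump accessory protein Atp6ap1 0.40. The 4 that fell were Slc4a2, Slc9a7, Rab3d and Snx10, and these falls numbered 1 or 2 without any of control replicates 1 to 4 or double knockout replicates 1 to 3, and also with the replicate block, quantile normalization, no filter, no trend or robust options and the double knockouts averaged in pairs. Tcirg1, the pump subunit of the osteoclast ruffled border, chosen for mention after its value had been seen, had a log2 fold change of 0.07 and did not pass the test. In the same libraries the median log2 fold change was -2.08 for monocyte and -1.72 for neutrophil markers, whose part in these values was not tested.

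Genes of the matrix degradation list were mostly higher, opposite to Mmp9. The list also holds the metalloproteinase inhibitors Timp1, Timp2 and Timp3 and the phosphatase gene Acp2, named here for what they encode. Of these, Timp2 and Acp2 rose, and Timp1 and Timp3 did not pass the test. Of 13 tested, 10 rose, 3 did not pass the test and none fell, where all genes tested had 22.9% higher. The median log2 fold change was 0.73. Mmp13, a collagenase, stood at 202.5 to 275 in controls and 3109 to 3666 in double knockouts (log2 3.75, adjusted p = 4.23e-10), and Mmp12, the macrophage elastase, at 893 to 1087.5 and 4519 to 5406 (log2 2.29). Ctsl, a lysosomal protease, had a log2 fold change of 1.71 and Timp2, an inhibitor of metalloproteinases that also takes part in activating them, of 2.05. Under quantile normalization 1 gene of this list was lower. Beside these rises, monocyte and neutrophil markers had medians of -2.08 and -1.72 on the log2 scale, and their part was not tested.

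Genes of the fusion and adhesion list were mostly lower, as Ocstamp and Dcstamp were. The list mixes fusion genes with adhesion genes. It also holds Pstpip2, which fell and whose loss is known to increase osteoclast formation. Of 17 tested, 14 fell, 2 rose and 1 did not pass the test, with a median log2 fold change of -0.53, where 23.8% of all genes tested were lower. The 14 include Cdh1, named here after its values had been seen. It passed the filter mainly through the controls, so its place in the count is no support for a change. Sh3pxd2a, the podosome scaffold Tks5, stood at 791 to 927 in controls and 335 to 424 in double knockouts (log2 -1.19, adjusted p = 1.65e-06). The hyaluronan receptor gene Cd44 had a log2 fold change of -1.01 and the tetraspanin gene Cd81 of -0.82. Sirpa, a receptor that takes part in macrophage fusion, passed narrowly (log2 0.18, adjusted p = 0.0305). Itgb3, the beta3 chain of the vitronectin receptor and a marker of osteoclasts, had the largest rise. Its values were 38.3, 29.0, 47.7 and 37.6 in controls and 381, 468, 376 and 398 in double knockouts, a difference of 3.39 on the log2 scale (SE 0.17, adjusted p = 2.56e-08). The count of 2 higher genes fell to 1 in 8 of 19 alternatives: without control replicates 1 or 2 or double knockout replicates 1 or 2, with the replicate block, with the double knockouts averaged in pairs, under quantile normalization and without the trend and robust options. Monocyte and neutrophil markers were lower in these libraries too (medians -2.08 and -1.72), and their part was not tested.

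Of the late osteoclast markers outside the 10 genes, 5 of 7 could be tested, 1 rose, 3 fell and 1 did not pass the test (2 rose without control replicate 1). Over all genes tested 22.9% were higher and 23.8% lower, and 5 genes are too few to set the list apart. The rise was that of Itgb3. The falls were those of Sema4d (log2 -0.53), an axon guidance ligand that osteoclasts release, Slc4a2 (-0.68), the anion exchanger that supplies chloride, and Cd109 (-0.93). Calcr, the calcitonin receptor gene that marks mature osteoclasts, had no read in any of the 8 libraries, where 3 reads would be a value of 2.89 to 3.33. Car2, the carbonic anhydrase that supplies protons, had 1 read in controls and 13 in double knockouts and was not tested. Markers of osteoclasts were thus unevenly read in these macrophage cultures: Calcr and Oscar were at or near 0 in both genotypes and Ctsk had few reads, while Acp5 and Itgb3 were read in all libraries and Sema4d had means of 7935 in controls and 5517 in double knockouts.

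Upstream of Nfatc1 genes of the lists moved both ways, as did all genes tested (22.9% higher and 23.8% lower), and counts near those shares are no result about a list. Of 19 genes of the RANK ligand system and proximal signalling, 5 rose, 5 fell and 9 did not pass the test (median log2 -0.01). Gab2, an adaptor at RANK, had a log2 fold change of 0.59 and Tab2, an adaptor of the kinase TAK1, of 0.46, and Traf6, Rela and Ikbkb rose too. Nfkb1 (-0.46) and the p38 kinase gene Mapk14 (-0.40) were lower, as were Nfkb2, Map3k14 and Mapk8. Of 19 genes of ITAM co-stimulation and calcium signalling, 6 rose, 3 fell and 10 did not pass the test (median log2 0.04), and 3 rose with the double knockouts averaged in pairs. The kinase gene Tec (0.83) and the adaptor gene Blnk (0.61) were higher, and Plcg2 (-0.65), a phospholipase of calcium release, Ppp3ca, a calcineurin subunit, and Sirpb1a (-1.52) were lower. Sirpb1a has near-identical paralogs, so its reads are uncertain. Of 8 genes tested around macrophage colony-stimulating factor, 4 fell, 1 rose and 3 did not pass the test (median log2 -0.06). Beside Csf1r these included Ccnd1, a cyclin induced by that factor (log2 -2.0), the kinase gene Pik3cd (-0.41) and the adaptor gene Grb2. The single rise, that of Akt1 (0.18), was lost without control replicate 3 (limma adjusted p = 0.0699) or double knockout replicate 3 (0.0593). It was also lost with the replicate block (0.0717) and with the double knockouts averaged in pairs (0.0889). Without control replicate 4, 2 genes of this list rose.

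Among transcription factors that promote osteoclast formation, 8 of 18 fell, 3 rose and 7 did not pass the test (median log2 -0.16). The 8 include Fosl1, named here after its values had been seen. It passed the filter through the controls, so its place in the count is no support for a change. The shares over all genes tested, 23.8% lower and 22.9% higher, apply to this list and to the next 2, whose counts are few. Fos, the AP-1 factor without which osteoclasts do not form, stood at 3461 to 3792 in controls and 1035 to 1319 in double knockouts (log2 -1.64, SE 0.08, adjusted p = 2.22e-08). Myc (-1.19) and Junb (-0.58) were lower, and Fosl2 (0.73), Jund and Prdm1 were higher. Of 8 factors known to restrain osteoclast formation, 3 rose, 3 fell and 2 did not pass the test (median log2 -0.10). Id2 (0.65) was higher, and Id1 (-0.82), Bcl6 (-0.49) and Rbpj were lower. Of 17 genes of the sealing zone and cytoskeleton, 6 fell, 2 rose and 9 did not pass the test (median log2 -0.11). Src, the kinase needed for the ruffled border, was higher, at 138 to 203 in controls and 305 to 389 in double knockouts (log2 0.97, adjusted p = 0.000284), as was the myosin gene Myo9b, and Tln1 (-0.80), Gsn (-0.62) and Was (-0.46), which link or remodel actin, were lower.

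**Figure D4:**
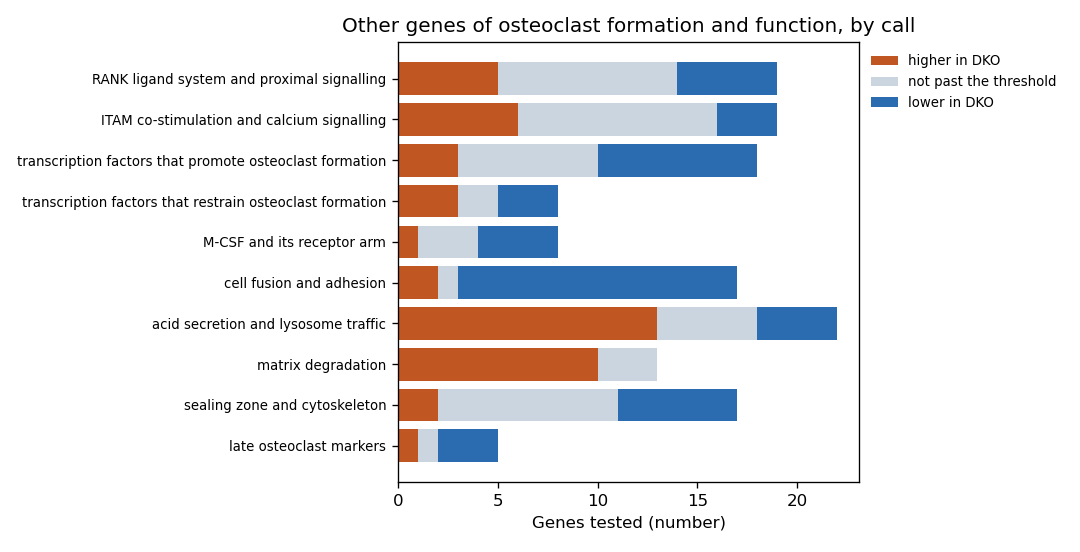
Number of genes tested (horizontal axis) in each of 10 lists of other osteoclast genes, split into higher in the double knockout (orange), not past the threshold (grey) and lower (blue). Acid secretion (13 of 22) and matrix degradation (10 of 13) hold the largest numbers of higher genes, and cell fusion and adhesion (14 of 17) the largest number of lower genes. The lower genes include Cdh1 (fusion and adhesion) and Fosl1 (promoting factors), which passed the filter mainly through the controls.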

How the data were processed

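Polyadenylated RNA of 8 libraries was sequenced as read pairs of 150 bases, per the labels' protocols. Salmon 1.4.0, DESeq2 and build mm10 are named in the submitters' processing notes. Not given in the sources used here were the annotation, the import of transcript estimates, filters and strandedness. The deposited values are a signal, the authors' gene reads divided by 1 size factor per library. Dividing by the smallest step gave whole reads for 100% of the values in each library (tolerance 0.01), which served depth and the count models.

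The test was limma 3.58.1 in R 4.3.3 (trend and robust, two-sided, genotype as the only term) on log2(value + 1), over 11675 genes reaching 10 in 4 or more libraries, with Benjamini-Hochberg adjustment and a threshold of 0.05. Fold changes on this scale understate changes of low genes. Genes outside the filter and within-library ratios were compared with exact permutation tests over 70 regroupings. Alternatives included edgeR 4.0.16 and DESeq2 1.42.0 on the recovered reads. The procedure was tested on simulated reads.

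Exon lengths and coordinates came from GENCODE M21 (mm10), which matched 34372 of 34432 rows. The 10 genes and the other lists were chosen with earlier results of these data known. Beside the 10 genes, Cdk8, Cdk19, Csf1r, Tnfsf11, Tnfrsf11b, Calcr, Atp6v0d1 and Ostm1, up to 4 genes per pathway list and up to 2 per cell type list with the smallest adjusted p were eligible to be named. Other genes are named to complete a count of 5 or fewer, or as stated, after their values were seen. There were 10 pathway lists with 152 distinct genes outside the 10, of which 4 stood in more than 1 list, and 8 cell type lists. The summed values of the lists not described in the report were 299 to 397 in controls and 468 to 563 in double knockouts for dendritic cells, 378 to 475 and 155 to 335 for osteoblasts and stroma, 120.5 to 146 and 46.8 to 65.3 for lymphocytes, 3.33 to 49.2 and 5.85 to 13.1 for mast cells and basophils, and at most 3.93 and 9.745 for erythroid cells. A result for 1 gene of the lists is not reported here.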

Additional observations from a re-analysis of the deposited data

Results flagged for a closer look

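Among 129 groups of 4 libraries (the named genes in each genotype), 6 had a library whose gap to the nearest other was above Dixon's critical share of the group's range, a rule that chance meets in about 1 group of 20. Of the 10 genes, this concerned Oscar, at 4.85 normalized reads in double knockout 1 and 0 in the other 3. Tnfsf11 was read at 0.983 in control 1 and at 0 in the others. Double knockout 1 also stood apart for Blnk, at 2507 against 2682 to 2718, and for S100a9, at 114 against 145 to 151. Nfkb1 stood at 2897 in control 4 against 3146 to 3191, and the dendritic cell marker Xcr1 at 30.2 in double knockout 4 against 48.0 to 51.4.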

How the results depend on the processing

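The calls of the 10 genes changed little with the processing. Tnfrsf11a, Ocstamp, Acp5, Atp6v0d2 and Clcn7 kept their direction and their call under 19 alternatives each, and Mmp9 under the 18 in which it was tested, since it fails a filter of at least 50. Mmp9 and Ocstamp passed the main filter mainly through the controls, so their kept calls are no support for a change. Ctsk passed without the trend and robust options (log2 0.92, adjusted p = 0.0254) and did not in the other 17, at adjusted p up to 0.193. Nfatc1 did not pass in any of 19 (0.244 to 0.669). Counts stayed at 3 higher and 3 lower when any library was left out. The number higher was 4 without the trend and robust options, and the number lower was 4 without a filter, where Dcstamp entered, and 2 with a filter of at least 50. Leaving out 1 library gave log2 fold changes of 0.85 to 0.97 for Acp5, -3.59 to -2.69 for Mmp9, -1.99 to -1.54 for Ocstamp, -0.88 to -0.79 for Tnfrsf11a, 0.51 to 0.58 for Atp6v0d2 and 0.73 to 0.84 for Clcn7. With the replicate number as a block, 2215 genes were higher and 2434 lower, and it changed no call among the 10 genes. For the 2 within-library ratios the block gave the same differences, 0.43 for Atp6v0d2 to Atp6v0d1 and 0.62 for Clcn7 to Ostm1, with an exact sign-flip p of 0.125, the lowest that 4 pairs allow. Deviations of same-numbered libraries correlated at -0.0535, 0.0316, -0.0363 and -0.043, so the numbers were not taken to pair the samples. Over all genes edgeR called 2589 higher and 2782 lower, and quantile normalization 3038 and 2505. Of 1007 alternative values for the other named genes, 28 lost a call, 4 gained one and none reversed, with the losses in Cdk8, Col1a2 and Akt1. Few reads limit Oscar, Ctsk, Dcstamp and Mmp9.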

Other observations

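Among the osteoclast genes outside the 10, the largest falls of the promoting factors and of the fusion list were those of genes read at low levels, chosen here after their values had been seen. Fosl1, an AP-1 factor, had means of 30.1 ± 12.9 in controls and of 2.96 ± 2.27 in double knockouts (log2 -3.08, limma adjusted p = 0.000966). Cdh1, the adhesion protein E-cadherin, known from the fusion of macrophages into giant cells, stood at 38.4 ± 11.7 and 5.68 ± 5.02 (log2 -3.04, adjusted p = 0.00396). Fosl1 reached a value of 10 in 4 control and 0 double knockout libraries and Cdh1 in 4 and 1, so both passed the filter through the controls and their p-values are no support for a change. Pstpip2, a membrane-bending adaptor whose loss is known to increase osteoclast formation, stood at 84.7 ± 8.30 and 27.9 ± 5.37 (log2 -1.58, adjusted p = 0.000143). Prdm1, a repressor that acts on inhibitors of osteoclast formation, and Cebpb, placed in the restraining list, were both higher, with log2 fold changes of 0.77 and 0.84.

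Mmp9 and Ocstamp, which both fell, lie on the same chromosome, mouse chromosome 2, with 437.9 kilobases between them. Of the 5 tested genes between them, 1 fell and none rose, and the other 4 did not pass the test, where 23.8% of all genes tested fell. This was looked for after the values had been seen.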
